A study of Mus musculus with 36 samples.

Results

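The BMP signalling genes *Bmp2*, *Bmp4*, *Bmp7*, *Bmp8b*, *Smad1*, *Smad5*, *Id1*, *Id2*, *Id3* and *Msx2* were followed through the bulk RNA-seq of the BMP4-induced primed to naïve transition (BiPNT), in which mouse epiblast stem cells (EpiSCs) are carried from the primed to the naïve pluripotent state. They were chosen by name, as ligands, signal-carrying SMADs and known targets of the pathway, and make 10 of the 29267 genes listed in the files of 7 libraries and of the 50600 listed in those of the other 4. All 10 were listed in each of the 11 RNA-seq libraries used, of 36 samples in the series.

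BMP ligands bind pairs of type I and type II receptor kinases at the cell surface, which phosphorylate SMAD1 and SMAD5. These join SMAD4, enter the nucleus and switch on target genes, among which the ID genes are the classical early ones. ID proteins lack a DNA-binding domain and hold basic helix-loop-helix factors inactive. In the mouse embryo, BMP4 and BMP8b from the extraembryonic ectoderm are known to induce primordial germ cells in the epiblast, and in pluripotent cells BMP signals are known both to hold back neural differentiation through ID genes and to favour trophoblast or mesoderm fates.

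The 3 EpiSC libraries come from cells kept in medium with Activin A, bFGF and XAV939, without added BMP4. Day 3 cells had grown in the first-stage medium, which carries BMP4, LIF, bFGF, CHIR99021, vitamin C, LiCl, the EZH2 inhibitor EPZ6438 and a DOT1L inhibitor, EPZ5676 or SGC0946 by the methods. They were sorted on the surface receptor c-Kit into cKit+ and cKit- cells, with 2 libraries of each. In a separate experiment, 1 library was made from Day 3 cells with the DOT1L inhibitor SGC0946 (D3 +SGC) and 1 from cells without it (D3 -SGC). The 2 libraries of BV+SC+ cells, labelled as primordial germ cell-like cells, were sorted at Day 6 for both fluorescent reporters, BV and SC. By the labels these cells had 3 days with BMP4 at 5 to 10 ng/ml, EPZ5676 (a DOT1L inhibitor) at 2.5 µM and EPZ6438 at 1 µM, and then a second medium. The reporters are driven by *Prdm1* (BV) and *Dppa3* (SC) elements, so neither gene's level in these cells is a finding, and the cells come from a reporter line of EpiSCs. Their 2 libraries carry different descriptions, 2iJi and GK15. The study tested GK15 medium, without or with BMP4, SCF, EGF and LIF, in the second stage, and separately a JAK inhibitor there. The labels do not spell the 2 words out. A replicate thus cannot be told apart from a difference in second-stage medium, which may include BMP4. The EpiSC, BV+SC+ and SGC labels share 1 protocol text, and nothing in it says that same-group libraries came from separate cultures, so p-values measure the spread between these libraries, which may be technical.

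Depth was 1726038 to 1841442 expected counts in the sorted cells, 2444211 to 3070115 in EpiSCs, 14778809 and 18099059 in BV+SC+ cells, and 4776143 with and 4577685 without SGC0946. *Kit* was at 99.6 and 96.0 TPM in the cKit+ libraries and at 4.81 and 3.24 TPM in the cKit- libraries, so the sort and the labels went the same way. All 6 germ cell markers, of which *Prdm1* and *Dppa3* are the genes of the reporters, exceeded 1 TPM in both BV+SC+ libraries, while *Dppa3* and *Nanos3* were listed at 0 in all 3 EpiSC libraries. TPM gives transcript abundance corrected for transcript length and scaled to the same total in each library. Levels are set side by side across the 3 experiments as a description only, since the sorted cells were counted on a longer list of genes and the methods and labels name different library kits.

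By the GENCODE M21 annotation of GRCm38, all 10 are protein-coding genes. *Bmp2* lies at chr2:133552159-133562885 on the plus strand, *Bmp4* at chr14:46383520-46390669 on the minus strand, *Bmp7* at chr2:172868012-172940321 on the minus strand and *Bmp8b* at chr4:123105165-123132099 on the plus strand. *Smad1* lies at chr8:79338395-79399518 on the minus strand and *Smad5* at chr13:56703010-56742377 on the plus strand. *Id1* lies at chr2:152736251-152737410 on the plus strand, *Id2* at chr12:25093799-25097140 on the minus strand, *Id3* at chr4:136143497-136145755 on the plus strand and *Msx2* at chr13:53466884-53473074 on the minus strand. Exons of *Bmp8b* overlap *Gm17244* over 8.7% and *Ppie* over 3.4% of their bases, those of *Bmp4* overlap *Gm15217* over 4.0%, all on the opposite strand, and *Smad5* overlaps *Gm27301* over 1.3% on its own strand. *Msx2* shares 4.3% of its longest transcript with *Vmn1r221* and *Gm47289*. The strand setting of the counting is not given in the sources used here, so these small parts are uncertain.

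Since the targets had the widest range of TPM between the cell states, the 250 bases before the RefSeq start (GRCm38.p6) of *Id2*, *Id3* and *Msx2* are shown, written 5′ to 3′ on the gene's strand. RefSeq promoter entries matched 7 of the 10 genes. By the GENCODE spans given above, the windows of *Id2*, *Id3* and *Msx2* lie inside the gene, downstream of its annotated start. They are thus upstream of the RefSeq start only. Capitals mark GGCGCC, which reads the same on both strands, and CAGAC, which reads GTCTG on the other strand, 2 sequences that SMAD proteins are known to bind.
Id2 (chr12:25096093-25096342, minus strand): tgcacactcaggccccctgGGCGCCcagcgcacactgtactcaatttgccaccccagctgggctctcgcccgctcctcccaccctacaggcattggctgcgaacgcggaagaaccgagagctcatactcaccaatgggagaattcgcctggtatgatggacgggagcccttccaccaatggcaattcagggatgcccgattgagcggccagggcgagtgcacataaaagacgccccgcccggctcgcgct
Id3 (chr4:136143572-136143821, plus strand): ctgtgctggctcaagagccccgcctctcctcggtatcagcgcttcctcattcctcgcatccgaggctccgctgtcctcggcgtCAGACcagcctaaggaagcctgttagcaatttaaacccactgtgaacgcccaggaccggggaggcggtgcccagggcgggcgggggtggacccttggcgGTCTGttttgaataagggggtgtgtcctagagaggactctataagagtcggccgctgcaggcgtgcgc
Msx2 (chr13:53472781-53473030, minus strand): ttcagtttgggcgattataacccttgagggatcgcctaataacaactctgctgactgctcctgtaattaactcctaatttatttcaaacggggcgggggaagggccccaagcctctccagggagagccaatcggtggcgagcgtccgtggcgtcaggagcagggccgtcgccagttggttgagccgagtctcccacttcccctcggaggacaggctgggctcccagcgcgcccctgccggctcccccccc
The *Id2* window holds GGCGCC 1 time and no CAGAC, the *Id3* window holds CAGAC 2 times and no GGCGCC, and neither is found in the *Msx2* window. The matches do not overlap each other. Over all 32851 RefSeq promoter windows of this length, 9.6% hold GGCGCC and 42.2% hold CAGAC on either strand. The windows share a high GC content, 62.8% for *Id2* and *Id3* and 61.6% for *Msx2* against a median of 52.4%, with 18, 18 and 16 CpG against a median of 6.

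All 4 targets were lower in EpiSCs and in Day 6 BV+SC+ cells than in every Day 3 library. *Id1* was at 60.7, 28.3 and 33.3 TPM in the EpiSC libraries, at 415 and 486 in cKit- cells, 501 and 419 in cKit+ cells, 658 without and 791 with SGC0946, and at 21.0 and 12.2 in BV+SC+ cells. Its 6 Day 3 values lay above 97.4% to 99.1% of the genes over 1 TPM in their libraries. *Id2* was at 36.7, 8.10 and 16.1 TPM in EpiSCs, at 243 and 248 in cKit- cells, 235 and 241 in cKit+ cells, 285 without and 325 with SGC0946, and at 18.9 and 14.0 in BV+SC+ cells. No Day 3 value of either gene overlapped the values of EpiSCs or BV+SC+ cells, while for *Id2* the EpiSC and BV+SC+ ranges overlapped.

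*Id3* followed a different order at the low end. It was at 28.1, 16.9 and 12.0 TPM in EpiSCs, 335 and 357 in cKit- cells, 546 and 501 in cKit+ cells, 834 without and 779 with SGC0946, and 72.6 and 62.4 in BV+SC+ cells. Its BV+SC+ values were above all EpiSC values and below all Day 3 values. *Msx2*, a homeobox repressor gene, was listed at 0 TPM in 1 EpiSC library and at 0.27 and 0.33 in the others, at 66.0 and 83.6 in cKit- cells, 74.8 and 97.2 in cKit+ cells, 214 without and 182 with SGC0946, and 9.07 and 4.78 in BV+SC+ cells. In both genes the groups stood in the order EpiSC, BV+SC+, sorted Day 3 cells and the unsorted Day 3 libraries, and only the cKit- and cKit+ ranges of *Msx2* overlapped.

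Among the ligands, *Bmp7* was the most abundant in all 8 libraries after BMP4 treatment. It was at 1.5, 0.70 and 0.90 TPM in EpiSCs, 43.3 and 51.8 in cKit- cells, 27.3 and 27.2 in cKit+ cells, 33.9 in each of the SGC0946 libraries, and 18.0 and 10.95 in BV+SC+ cells. *Bmp4*, the gene of the factor that was added to the medium, was at 4.10, 1.31 and 0 TPM in EpiSCs, 11.3 and 4.59 in cKit- cells, 2.60 and 6.67 in cKit+ cells, 12.1 without and 17.3 with SGC0946, and 6.53 and 7.38 in BV+SC+ cells. The ranges of its neighbouring groups overlapped from EpiSC through cKit+ and BV+SC+ to cKit- cells, and its values rest on 0 to 17 counts in the EpiSC and sorted libraries.

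*Bmp2* and *Bmp8b* were low throughout. *Bmp2* was at 0, 0.54 and 0 TPM in EpiSCs, 2.97 and 4.81 in cKit- cells, 1.47 and 0.82 in cKit+ cells, 3.94 without and 2.81 with SGC0946, and 0.14 and 0.06 in BV+SC+ cells. *Bmp8b* had 0 to 2 counts in every EpiSC and Day 3 library, with up to 0.76 TPM, and 11 and 25 counts in the deeper BV+SC+ libraries, at 0.46 and 0.97 TPM. Expression of *Bmp8b* below these levels was not detectable at this depth.

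The SMADs varied far less than the targets. *Smad5* was at 35.1, 39.0 and 34.4 TPM in EpiSCs, 52.4 and 50.5 in cKit- cells, 36.5 and 28.9 in cKit+ cells, 60.8 without and 51.1 with SGC0946, and 13.9 and 10.9 in BV+SC+ cells. *Smad1* was at 20.3, 20.0 and 17.5 TPM in EpiSCs, 14.0 and 14.5 in cKit- cells, 7.78 and 5.03 in cKit+ cells, 23.2 without and 16.1 with SGC0946, and 13.3 and 10.95 in BV+SC+ cells. The lowest *Smad5* level was thus in BV+SC+ cells, and the lowest *Smad1* level in cKit+ cells. *Smad5* made 63.3% to 85.2% of the summed TPM of both SMADs in EpiSC and Day 3 libraries, and 51.1% and 49.8% in BV+SC+ libraries. The effective length by which its counts were divided was 5933 and 5180 bases in BV+SC+ libraries and 3895 to 4370 bases in EpiSCs. In the Day 3 libraries with and without SGC0946 it was 5222 and 4794 bases, where *Smad5* made 76.0% and 72.4%. A longer effective length lowers TPM at the same counts, and its part in these shares was not tested.

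**Figure D1:**
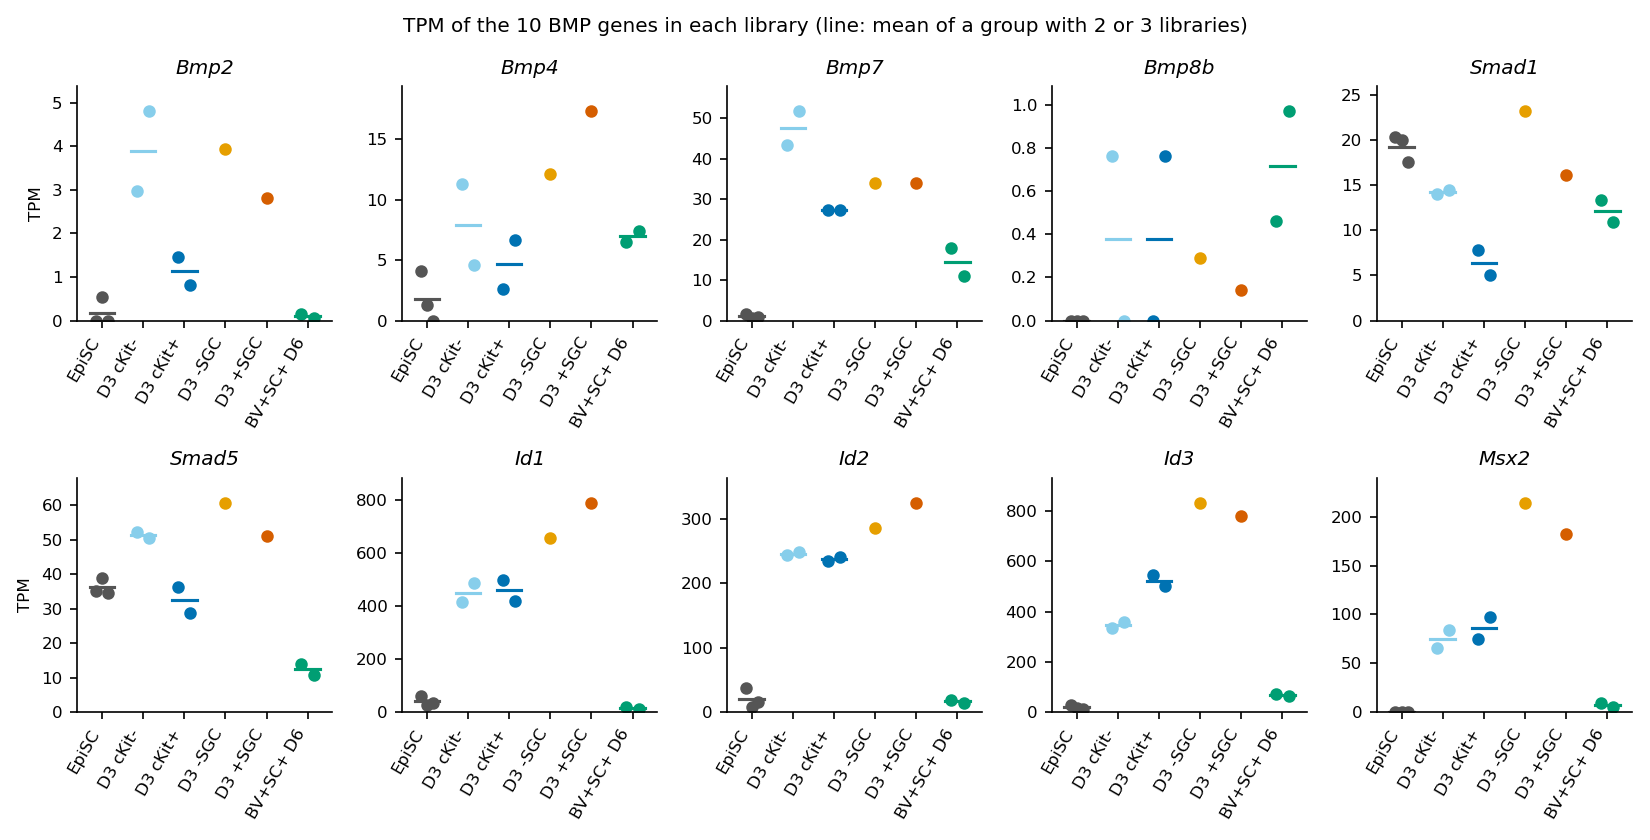
TPM (y axis, a separate linear scale from 0 for each gene) of the 10 genes in the 11 libraries, by group (x axis). Each point is a library and the line is the mean of a group with 2 or 3 libraries. *Id1*, *Id2*, *Id3* and *Msx2* were highest in the 6 Day 3 libraries, with *Id1* between 415 and 791 TPM there and between 12.2 and 60.7 TPM elsewhere.

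The makeup of the ID genes also differed between states. *Id1* made 48.4%, 53.2% and 54.2% of the summed *Id1*, *Id2* and *Id3* TPM in the EpiSC libraries, where *Id3* made 22.4%, 31.6% and 19.6%. In cKit- cells *Id3* made 33.7% and 32.7%, and in cKit+ cells 42.6% and 43.2%. In BV+SC+ cells *Id3* made 64.5% and 70.5%, and *Id1* 18.7% and 13.7%. The sum itself was 53.3 to 126 TPM in EpiSCs, 993 to 1896 TPM at Day 3 and 112 and 88.5 TPM in BV+SC+ cells, so the EpiSC and BV+SC+ sums overlapped while the shares of *Id3* did not. The 31.6% of *Id3* comes from EpiSC replicate 2, with 20 counts and an effective length of 710 bases. In EpiSC replicates 1 and 3 that length was 1041 and 972 bases, and a shorter length raises TPM at the same counts. These shares are a description and were not tested.

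**Figure D2:**
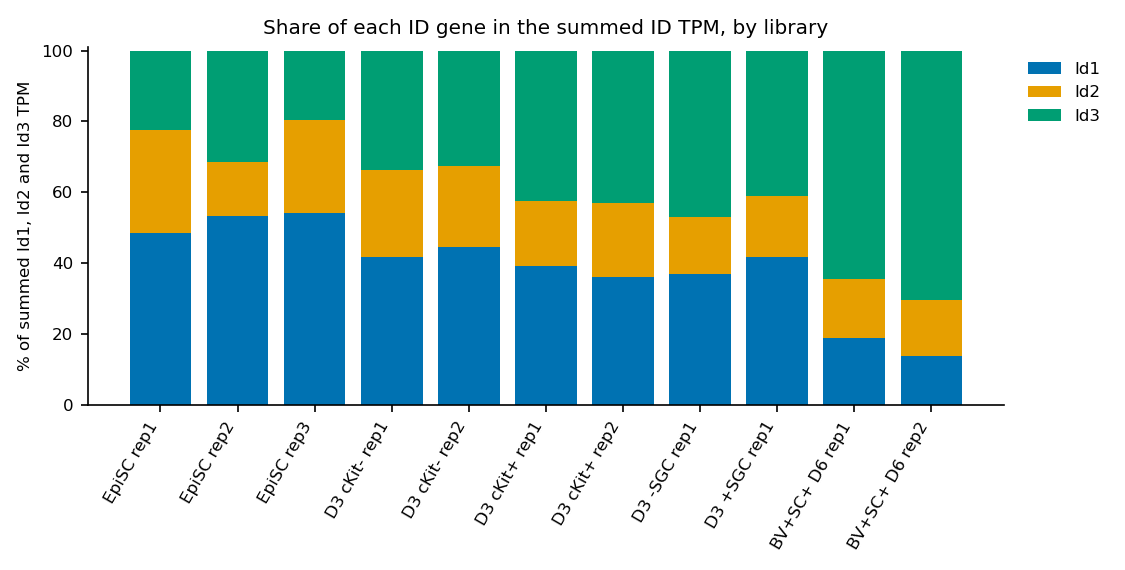
Share of each ID gene (y axis, percent) in the summed TPM of *Id1*, *Id2* and *Id3*, by library (x axis). *Id3* made 19.6% to 31.6% in EpiSC libraries, 32.7% to 46.9% in Day 3 libraries, and 64.5% and 70.5% in BV+SC+ libraries.

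To see which of these genes differ between the cell populations that the c-Kit sort separates, the expected counts of cKit+ and cKit- cells were set against each other in edgeR (quasi-likelihood test). *Id3* rose and *Bmp7* and *Smad1* fell in cKit+ cells, and the other 5 genes tested did not pass. A gene was called at an adjusted p (Benjamini-Hochberg, over all genes tested) under 0.05. Of the 8 genes with enough counts, 3 were called, where 41.5% of all 11018 genes tested were called, a share close to that background. By direction, 1 of the 8 was higher against 20.2% of all genes, and 2 were lower against 21.3%. The median log2 fold change of the 8 was -0.11 against 0.03 over all genes. At the threshold of the study's methods (P under 0.05 and a fold over 2) none of the 8 was called, against 24.4% of all genes.

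*Id3* had 387 and 404 counts in cKit- cells and 635 and 630 in cKit+ cells, a log2 fold change of 0.74 ± 0.10 (SE, edgeR adjusted p = 0.000448). The groups did not overlap, and the call held with each library left out. *Id1* had 344 and 398 counts in cKit- against 423 and 380 in cKit+ cells (log2 fold change 0.18 ± 0.13, edgeR adjusted p = 0.301) and *Id2* 281 and 283 against 274 and 302 (0.09 ± 0.11, edgeR adjusted p = 0.54). Their 95% intervals, -0.12 to 0.48 and -0.16 to 0.35, leave out a 2-fold difference in either direction. *Msx2* had 149 and 189 against 174 and 241 counts (0.35 ± 0.18, edgeR adjusted p = 0.142), with overlapping groups.

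*Bmp7* had 151 and 178 counts in cKit- cells and 96 and 103 in cKit+ cells (log2 fold change -0.66 ± 0.17, edgeR adjusted p = 0.0108). The groups did not overlap, though with DESeq2 the adjusted p was 0.0681. *Bmp4*, with 17 and 5 against 5 and 12 counts, could not be placed (-0.30 ± 0.67, edgeR adjusted p = 0.74), and its 95% interval ran from -1.81 to 1.19. *Bmp2* was too low for the test. It had 26 counts over the cKit- libraries and 8 over the cKit+ libraries, a CPM ratio of 0.313 with a counting interval of 0.122 to 0.711, and without the filter on low counts its edgeR adjusted p was 0.0759. *Bmp8b*, with 2 and 1 counts over the groups, was at or under the floor of 3 counts in both and has no fold.

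*Smad1* had 41 and 40 counts in cKit- cells and 23 and 16 in cKit+ cells (log2 fold change -0.98 ± 0.33, edgeR adjusted p = 0.0396). The groups did not overlap, but the call was lost without cKit- replicate 1 (edgeR adjusted p = 0.0571), without cKit+ replicate 2 (edgeR adjusted p = 0.195) and with DESeq2 (adjusted p = 0.2). *Smad5* had 179 and 162 against 137 and 116 counts (-0.36 ± 0.16, edgeR adjusted p = 0.101). It passed on TPM (limma adjusted p = 0.0445), where RSEM also gave it a longer effective length in cKit+ cells (3841 and 3813 bases) than in cKit- cells (3520 and 3351), and it passed without cKit- replicate 2 (edgeR adjusted p = 0.0367). *Msx2* also passed without that library (edgeR adjusted p = 0.00888), which brought the called genes from 3 to 5.

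Markers of other cell types moved with this sort. The summed TPM of 9 trophoblast markers was 6453 and 5967 in cKit- cells and 1565 and 1362 in cKit+ cells, with all 9 over 1 TPM in all 4 libraries. The 7 pluripotency markers summed to 311 and 266 TPM in cKit- and 2341 and 2333 TPM in cKit+ cells, and 5 fibroblast markers to 165 and 139 against 55.5 and 43.6 TPM. The 6 germ cell markers summed to 325 and 319 against 1120.0 and 1017 TPM, and 6 mesoderm markers, mostly *Hand1* in cKit- cells, to 555 and 438 against 274 and 280 TPM. *Hand1* alone was at 553 and 435 TPM in cKit- and 103 and 75.3 TPM in cKit+ cells. The other mesoderm markers together were thus higher in cKit+ cells. Among the trophoblast markers *Cdx2* was the other way, at 26.5 and 14.4 TPM in cKit- and 51.5 and 55.7 TPM in cKit+ cells. The part of these differences in the results for *Id3*, *Bmp7* and *Smad1* was not tested. In bulk RNA, fewer cells of a type and less RNA per cell cannot be told apart.

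**Figure D3:**
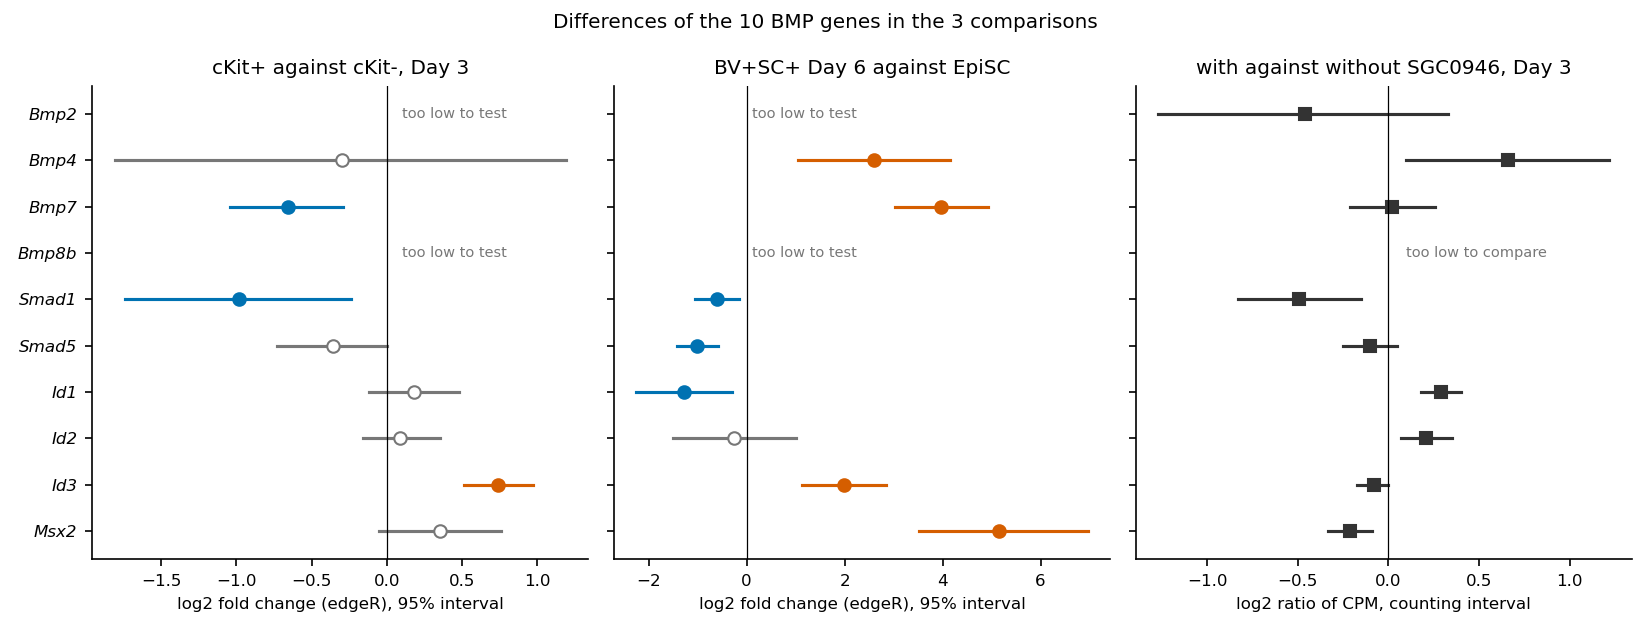
Log2 differences (x axes) of the 10 genes (y axis) in the 3 comparisons. The first 2 panels give edgeR log2 fold changes with 95% intervals, orange for higher, blue for lower and open grey for not called, and the third gives log2 CPM ratios of 1 library against 1 with intervals that cover counting error only. *Id3* was higher in cKit+ than in cKit- cells (0.74) and in BV+SC+ cells than in EpiSCs (1.99).

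To see how the genes differ between the start of the transition and the germ cell-like state, BV+SC+ cells were compared with EpiSCs in the same way. *Bmp4*, *Bmp7*, *Id3* and *Msx2* rose, and *Smad1*, *Smad5* and *Id1* fell. Thus 7 of the 8 genes with enough counts were called, where 56.0% of all 11792 genes tested were called. By direction, 4 were higher against 29.6% of all genes, and 3 were lower against 26.5%. Of the higher genes, *Bmp4*, *Bmp7* and *Msx2* had under 10 counts in every EpiSC library. They entered the test through the BV+SC+ libraries, where they were high, so the filter on low counts favoured a rise for them. With 10 counts required in every library, 5 genes were tested, of which 1 was higher and 3 were lower. Over all genes, 2767 were then higher and 2672 lower of 10054 tested. In the shallower EpiSC libraries 10 counts is a higher level. This filter thus removed genes low in EpiSCs more readily than genes low in BV+SC+ cells, which favours decreases. At P under 0.05 and a fold over 2, 6 of the 8 passed against 35.0% of all genes. The ID genes did not move as one, with *Id3* higher, *Id1* lower and *Id2* not called.

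*Bmp7* had 9, 4 and 3 counts in EpiSCs and 553 and 403 in BV+SC+ cells, at log2 3.97 ± 0.41 (edgeR adjusted p = 0.000162). *Bmp4* had 6, 4 and 0 against 98 and 135 counts (2.59 ± 0.67, edgeR adjusted p = 0.0117). The groups of neither ligand overlapped in CPM. For *Bmp4* the call was lost without EpiSC replicate 2 (edgeR adjusted p = 0.0578), and its fold change was 3.26 without EpiSC replicate 1, so its size rests on few EpiSC reads. *Bmp8b* had no count in the 3 EpiSC libraries and 36 over the BV+SC+ libraries, at least 3.1-fold higher in CPM against a floor of 3 counts over the EpiSC libraries, while the counting interval of the ratio starts at 2.39. *Bmp2* had 3 counts over the EpiSC libraries and 6 over the BV+SC+ libraries, a CPM ratio of 0.516 with a counting interval of 0.11 to 3.19. Neither passed the filter on low counts. Without the filter the edgeR adjusted p was 0.0141 for *Bmp8b*, higher in BV+SC+ cells, and 0.748 for *Bmp2*.

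*Msx2* had 0, 1 and 1 counts in EpiSCs and 178 and 110 in BV+SC+ cells. The fitted difference was 5.15 ± 0.75 (log2, edgeR adjusted p = 0.000722), which depends on the prior count at such low values, and the ratio of pooled CPM was 37.2 with a counting interval of 10.2 to 308. Leaving out EpiSC replicate 1 gave 4.55. *Id3* had 51, 20 and 16 counts in EpiSCs and 651 and 668 in BV+SC+ cells (1.99 ± 0.37, edgeR adjusted p = 0.00255), with no overlap in CPM and a value of 2.60 without EpiSC replicate 1. *Id1* had 75, 34 and 33 against 131 and 90 counts (-1.27 ± 0.42, edgeR adjusted p = 0.0325). *Id2* had 66, 14 and 23 against 173 and 154 counts (-0.26 ± 0.54, edgeR adjusted p = 0.709), and its 95% interval of -1.51 to 1.00 does not exclude a 2-fold difference.

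EpiSC replicate 1 had the highest level of all 3 ID genes among the EpiSC libraries, and bore on these results. Without it, *Id1* was at -0.86 and no longer called (edgeR adjusted p = 0.144), and *Id2* turned to 0.53 (edgeR adjusted p = 0.393). *Id1* was also not called without EpiSC replicate 3 (edgeR adjusted p = 0.057). *Id3* stayed called without any 1 of the 5 libraries.

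*Smad5* had 238, 262 and 206 counts in EpiSCs and 739 and 605 in the deeper BV+SC+ libraries, or 77.5, 88.2 and 84.3 CPM against 50.0 and 33.4 CPM (-1.01 ± 0.18, edgeR adjusted p = 0.00209). *Smad1* was at 33.6, 32.3 and 28.2 against 23.1 and 18.7 CPM (-0.60 ± 0.20, edgeR adjusted p = 0.0309). Neither overlapped between the groups. The *Smad5* call held with each library left out, while that of *Smad1* was lost without any 1 of the 3 EpiSC replicates, at edgeR adjusted p = 0.111, 0.0989 and 0.061. The summed trophoblast markers were at 42.3 to 67.8 TPM in EpiSCs and 209 and 75.6 TPM in BV+SC+ cells, the germ cell markers at 26.6 to 30.1 and 2289 and 2594 TPM, and the primed epiblast markers at 1008 to 1082 and 22.7 and 95 TPM. Their part in these results was not tested.

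In the libraries with and without SGC0946, 1 of each, none of the 9 genes over 1 TPM passed a 2-fold difference on the log2(TPM + 1) scale, on which 9.78% of 14038 genes did (6.33% higher and 3.45% lower with the inhibitor). This scale understates the change of low genes, and with 1 library per condition there is no replicate check and no test. The values ran from -0.50 for *Smad1* to 0.48 for *Bmp4*, with SGC0946 over without. The median was 0.01 over all genes and -0.10 over the 9 genes.

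For the targets, the log2 CPM ratio was 0.29 for *Id1* (counting interval 0.18 to 0.40), 0.21 for *Id2* (0.07 to 0.35), -0.08 for *Id3* (-0.17 to 0.00) and -0.21 for *Msx2* (-0.33 to -0.09). All 4 intervals lie well inside a 2-fold difference between these 2 libraries, and they cover counting error only. *Bmp7* had 312 counts with and 294 without SGC0946 (0.02, -0.21 to 0.26). *Bmp4* had 74 and 45 counts (0.66, 0.10 to 1.22) and *Bmp2* 25 and 33 (-0.46, -1.27 to 0.33), so for both a 2-fold difference was within the counting error. *Smad1* had 125 and 168 counts (-0.49, -0.83 to -0.15) and *Smad5* 711 and 731 (-0.10, -0.25 to 0.05). *Bmp8b* had 1 and 2 counts and no fold is given. The pluripotency markers summed to 961 TPM with and 175 TPM without SGC0946 and the trophoblast markers to 1988 and 2451 TPM, and their part was not tested.

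The rest of the pathway was taken from a list of 54 genes, of which 53 were found in the files. In the sorted cells 18 of the 31 tested were called, 9 higher and 9 lower in cKit+ cells, with a median log2 fold change of 0.07 against 0.03 over all genes. Over all genes tested 41.5% were called, 20.2% higher and 21.3% lower, and the counts by role rest on too few genes to be read against these shares. By role, these were 1 of 2 other BMP and GDF ligands, 2 of 7 receptors and co-receptors, 2 of 4 other SMADs, 6 of 7 extracellular antagonists, 3 of 7 intracellular regulators and 4 of 4 other targets. The antagonists split, with *Chrd*, *Fst* and *Fstl1* higher and *Fstl3*, *Twsg1* and *Nbl1* lower in cKit+ cells. *Chrd* (4 and 5 counts) and *Fst* (8 and 5) were under 10 counts in both cKit- libraries. They entered the test through the cKit+ libraries, so the filter on low counts favoured a rise for them. With 10 counts required in every library, 14 of 26 pathway genes were called, 7 higher and 7 lower. Over all genes, 1808 were then higher and 2020 lower of 9385. The other targets split too, with *Id4* and *Msx1* higher and *Dlx3* and *Hand1* lower.

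The 4 largest changes in the sorted cells were all decreases in cKit+ cells. Of these genes, *Bmp8a*, *Fstl3* and *Smad9* had under 10 counts in both cKit+ libraries. They entered the test through the cKit- libraries, where they were high, so the filter on low counts favoured a decrease for them. *Bmp8a*, a close relative of *Bmp8b*, was at 17.5 and 12.2 TPM in cKit- and 1.11 and 1.03 TPM in cKit+ cells (log2 fold change -3.69, edgeR adjusted p = 0.000729). It shares 14.2% of its longest transcript with *Gm17244*. *Fstl3*, a secreted binder of activin and BMP proteins, was at 24.8 and 15.5 against 3.26 and 2.02 TPM (-2.60, edgeR adjusted p = 0.00297), and shares 59.2% of its longest transcript with *Prss57*, so its value is uncertain. *Hand1*, a helix-loop-helix factor of trophoblast and mesoderm that is also in the mesoderm marker list, was at 553 and 435 against 103 and 75.3 TPM (-2.35, edgeR adjusted p = 8.38e-06). *Smad9*, the third BMP-activated SMAD, was at 2.14 and 2.17 against 0.58 and 0.36 TPM (-2.02, edgeR adjusted p = 0.0263), a call lost without any 1 of the 4 libraries (edgeR adjusted p = 0.128 to 0.239).

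In BV+SC+ cells against EpiSCs, 16 of the 27 pathway genes tested were called, 3 higher and 13 lower, with a median of -0.44 against 0.05 over all genes. Over all genes 56.0% were called, 29.6% higher and 26.5% lower, so the number called was near the background. Receptors and co-receptors made 7 of them, with *Rgma* and *Eng* higher and *Bmpr1a*, *Bmpr1b*, *Acvr1*, *Bmpr2* and *Acvr2b* lower, so every type I or type II receptor that was called was lower in BV+SC+ cells. *Smad4*, the common partner, and *Smad7*, an inhibitory SMAD, were lower, as were 4 of 7 intracellular regulators (*Smurf1*, *Smurf2*, *Ski* and *Ppm1a*) and 2 of 6 antagonists (*Chrd* and *Twsg1*). *Id4* was the 1 called of 2 other targets, and no other ligand had enough counts. The 3 higher genes, *Rgma*, *Eng* and *Id4*, had under 10 counts in every EpiSC library and entered the test through the BV+SC+ libraries. Of the lower genes, *Bmpr1b* (22 and 10 counts) and *Chrd* (13 and 4) were low for the depth of the BV+SC+ libraries. They entered the test through the EpiSC libraries, so the filter on low counts favoured a decrease for them. With 10 counts required in every library, 21 pathway genes were tested and 12 called, 0 higher and 12 lower. Over all genes, 2767 were then higher and 2672 lower of 10054 tested. Since 10 counts is a higher level in the shallower EpiSC libraries, this filter favours decreases, and the split by direction cannot be read apart from it.

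*Id4* was at 0.40, 0.84 and 1.02 TPM in EpiSCs and 19.0 and 8.81 TPM in BV+SC+ cells (log2 fold change 4.27, edgeR adjusted p = 0.000597), from 1 or 2 counts in each EpiSC library. *Eng*, the co-receptor endoglin, was at 0.54, 1.51 and 1.04 against 3.64 and 13.9 TPM (3.62, edgeR adjusted p = 0.00319), a size that rests on its higher BV+SC+ library, since it was 2.25 without BV+SC+ replicate 2 and 4.31 without replicate 1. *Bmpr1b*, a type I receptor, was at 4.17, 3.11 and 6.92 against 0.58 and 0.18 TPM (-3.13, edgeR adjusted p = 0.00282). *Rgma*, a BMP co-receptor, was at 1.28, 1.53 and 0.93 against 10.3 and 4.07 TPM (2.63, edgeR adjusted p = 0.00317). Without BV+SC+ replicate 1, *Rgma* was at 1.80, *Id4* at 3.64 and *Bmpr1b* at -3.91, all still called. None of the 40 pathway genes over 1 TPM in the SGC0946 libraries passed 2-fold on the log2(TPM + 1) scale, against 9.78% of all genes, with values from -0.72 for *Ski* to 0.75 for *Sostdc1*. As log2 CPM ratios without a pseudocount, *Sostdc1* was at 1.03 from 17 counts with and 8 without SGC0946 (counting interval -0.26 to 2.45), and *Fst* at 1.04 from 15 and 7 (-0.34 to 2.57). *Bmpr1b*, which did not exceed 1 TPM, had 11 counts with and 0 without SGC0946, where the counting interval of the log2 CPM ratio starts at 1.27.

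**Figure D4:**
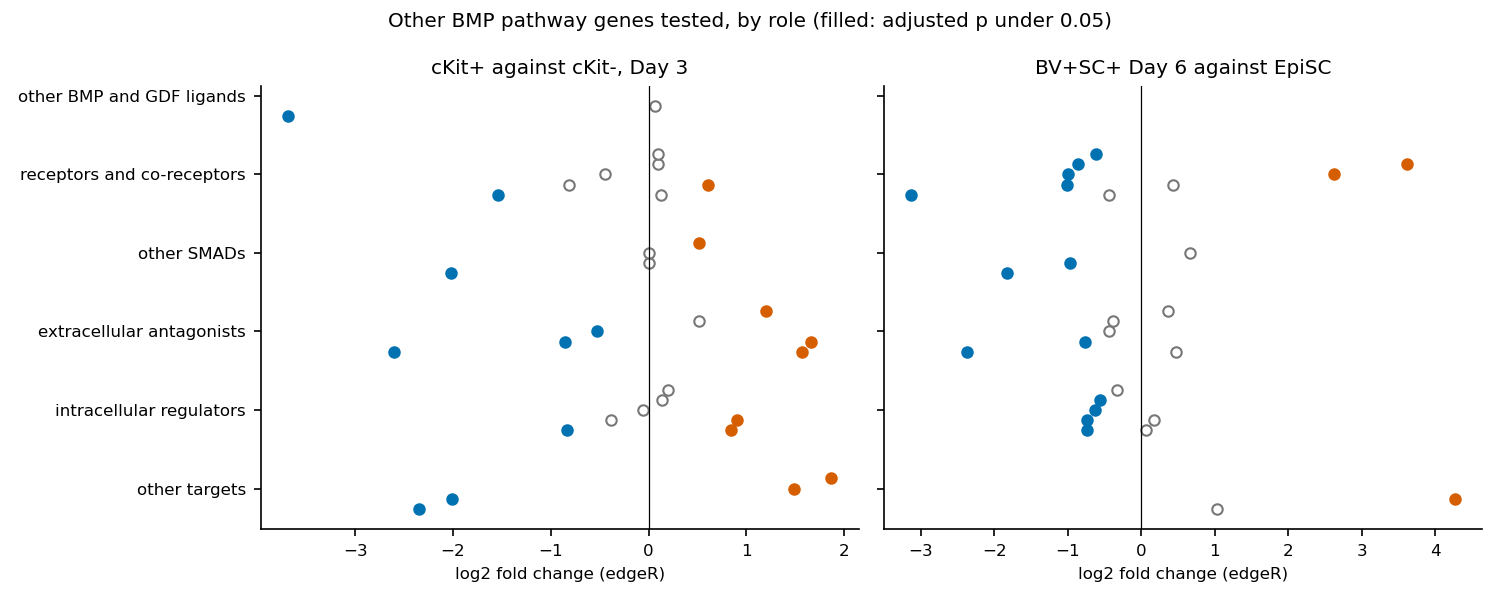
edgeR log2 fold changes (x axes) of the other BMP pathway genes tested, by role (y axis), in cKit+ against cKit- cells (31 genes) and BV+SC+ cells against EpiSCs (27 genes). Filled points were called, orange higher and blue lower, and points are spread vertically for sight only. In the second panel 13 of the 16 called genes lie below 0, and the 3 above 0 had under 10 counts in every EpiSC library. Of those below 0, *Bmpr1b* and *Chrd* entered the test through the EpiSC libraries.

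Over the 11 libraries, the 5 genes whose log2(TPM + 1) was most like that of *Id1*, of 10631 genes with a mean of at least 5 TPM, were *Lamtor1* (Pearson r = 0.985), *Rce1* (0.981), *Mtch1* (0.977), *Id2* (0.976) and *Tlnrd1* (0.976). Of the 7 other genes followed here that reached this mean (*Bmp2* and *Bmp8b* did not), *Id2* was thus the closest to *Id1*, before *Id3* (0.882) and *Msx2* (0.865), while *Smad1* was at -0.18. Most like *Bmp4* were *Golga1* (0.899), *Rmnd5b* (0.899), *Mier2* (0.895), *Cdkn1c* (0.886) and a gene without a symbol (0.884). These are descriptions over libraries that share experiments, kits and depths, and carry no test.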

How the data were processed

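RNA-seq libraries of EpiSCs, Day 3 and Day 6 cells were analysed. The authors aligned reads with Bowtie2 to a GENCODE transcriptome of mm10 and obtained gene-level expected counts from RSEM (1.3.1 in the submitters' processing notes, another version in the methods). They deposited these expected counts, which are not normalized between libraries, and TPM computed from them and the effective lengths. Replicates were not pooled. Symbols came from GENCODE M21 (98.25% to 99.56% of identifiers), which is not the release that the methods give. Other assays of the series were not used here.

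Expected counts were rounded and tested within each experiment with edgeR 4.0.16 in R 4.3.3 (filterByExpr, TMM, quasi-likelihood test), with p-values adjusted over all genes tested. Each SE was derived from the fitted coefficient without a prior count and the F statistic of the test. The 95% intervals are centred on that coefficient, while the fold changes given include edgeR's prior count. The fit was tested on simulated data. Of genes given a log2 change of 1, it called 64.6% in the sorted cells and 52% in BV+SC+ cells against EpiSCs. At a log2 change of 2 these were 91% and 91.9%, so a gene not called may still differ by 2-fold. The SGC0946 libraries were compared as log2(TPM + 1) among genes over 1 TPM in at least 1 library, with exact (Clopper-Pearson) 95% conditional intervals of CPM ratios. Reads carry no molecular identifiers, so intervals and floors (3 counts) cover counting error only. Replicates differed by more than sampling noise. The chi-square statistic per degree of freedom was 1.99 to 4.46 for same-group pairs of sorted or EpiSC libraries. It was 45.52 for the 2 BV+SC+ libraries, which carry different descriptions and are the deepest, and the statistic also grows with depth. Shared sequence (98% over 75 bases) was found with BLAST+ 2.17.0.

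All 10 genes are named. Of the pathway list, the up to 4 called genes with the largest change and a mean of at least 1 TPM are named in each comparison. Further genes are named where a role is listed by its calls. The genes and lists were chosen with earlier results of these data known. The alternatives were DESeq2 1.42.0, RLE factors, library totals, other filters, limma 3.58.1 on TPM, the replicate block, each library left out and, for the SGC0946 libraries, another pseudocount, other filters and CPM.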

Additional observations from a re-analysis of the deposited data

How the results depend on the processing

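In the sorted cells, 111 of 128 values of named genes under the alternatives kept their direction and their side of the threshold, and in BV+SC+ cells against EpiSCs 129 of 138 did. The called genes of the 10 went from 3 to 1 with DESeq2 and to 0 at P under 0.05 with a fold over 2, and lay between 2 and 5 with 1 library left out. The pathway genes called there went from 18 to 11 with DESeq2, 10 with limma on TPM and 11 at P under 0.05 with a fold over 2 (12 to 21 with 1 library left out). In BV+SC+ cells against EpiSCs, requiring 10 counts in every library left 5 of the 10 genes to test and 4 called, 1 higher and 3 lower. Of the pathway genes it left 21 to test and 12 called, 0 higher and 12 lower. Since 10 counts is a higher level in the shallower EpiSC libraries, this filter favours decreases. Over all genes it left 10054 to test, with 2767 higher and 2672 lower. In the same comparison P under 0.05 with a fold over 2 left 7 of 16 pathway genes. Leaving out 1 library there gave 5 to 7 and 16 to 22 called genes. Among the named genes, directions turned for uncalled ones only. In the sorted cells *Bmp4* went from -0.30 to 0.78 without cKit- replicate 1 and to 0.13 without cKit+ replicate 1 (range with 1 library left out -1.04 to 0.78), and *Id2* from 0.09 to -0.05 with limma on TPM. In BV+SC+ cells *Id2* went from -0.26 to 0.53 without EpiSC replicate 1 (range -0.64 to 0.53). The cause was not tested.

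Over all genes, the calls in the sorted cells went from 2228 higher and 2346 lower to 1272 and 1483 with DESeq2. With limma on TPM 1298 were higher and 2319 lower, and the median of all genes moved from 0.03 to -0.11. Without the filter on low counts the median in BV+SC+ cells moved from 0.05 to 0.29. Same-numbered libraries share only a number, and their deviations from the group means correlated at 0.114 over 5509 genes in the sorted cells and at -0.02 over 5896 genes in the other comparison. With the replicate block, 3 and 18 genes were called in the sorted cells, and 6 and 15 in BV+SC+ cells, where *Smad1* (-0.67) lost its call (edgeR adjusted p = 0.0678). *Smad1* also lost it there without the filter (edgeR adjusted p = 0.0669). None of the 10 genes and none of the pathway genes passed 2-fold in the SGC0946 libraries under any of the 4 alternatives, each of which adds a pseudocount, CPM included. Where leaving out a library left 1 in a group, that library was assumed to vary like the other group. At 1726038 to 3070115 counts a library, *Bmp2*, *Bmp8b* and, in EpiSCs, *Bmp4*, *Bmp7* and *Msx2* were limited by depth.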
